A study of Mus musculus with 19 samples.

Results

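Neurotransmitter receptor genes were examined for extrachromosomal circular DNA (eccDNA) in the cervical spinal cord of mice with an amyotrophic lateral sclerosis (ALS) phenotype. The genes were taken by symbol from the deposited table, as those of the ionotropic and metabotropic glutamate receptors (Gria, Grik, Grid, Grin, Grm), the GABA and glycine receptors (Gabr, Gabbr, Glra, Glrb), the muscarinic and nicotinic acetylcholine receptors (Chrm, Chrn) and the receptors of serotonin, dopamine and noradrenaline (Htr, Drd, Adra, Adrb). This gave 48 of the 8336 genes of the table, with 21 glutamate, 12 GABA and glycine, 6 cholinergic and 9 monoamine genes. The symbol rule also took in Grid2ip, which encodes a scaffold protein and no receptor, so that 47 of the 48 are receptor genes.

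EccDNA was measured in 9 ALS and 10 control animals with 1 library each. ALS animals were male B6.Cg-Tg(SOD1*G93A)1Gur/J mice, in which a mutant human SOD1 transgene is constitutively overexpressed. They were taken with a severity score of 1 or 2 at 18 to 21 weeks of age. Controls were C57BL/6J males of like age without a transgene, and a strain carrying normal human SOD1 was not among the samples, so that the mutation and the overexpression cannot be told apart here. From each animal, 400 ng of DNA were freed of linear DNA by exonuclease V over 7 days, and the circles were multiplied by rolling circle amplification over 48 h. The tissue was whole cervical cord, and DNA circles carry no cell type marker, so that the number of cells with a circle and the number of circles per cell cannot be told apart.

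Glutamate drives fast excitation in the spinal cord through ion channels of the AMPA, kainate and NMDA types, whereas metabotropic glutamate receptors couple to G proteins and tune transmitter release and excitability. GABA and glycine open chloride channels that inhibit motor neurons, and GABA-B receptors act through G proteins. Acetylcholine and the monoamines, released by motor neurons, interneurons and descending fibres, set the gain of motor circuits, mostly through G protein-coupled receptors.

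The value per gene and sample, the produced per gene circle value (PpGC), sums the split reads of each eccDNA lying over any of the gene, is scaled to gene length so that each gene counts as if it were as long as the longest one, and is given as log2(PpGC + 1). A split read spans the junction of a circle, and circles with fewer than 2 split reads had been removed. A value of 0 therefore means that no eccDNA with at least 2 split reads was seen, and a value from 2 or 3 split reads comes from 1 eccDNA. The same 2 split reads gave a log2 PpGC of 3.41 in Grm7, which spans 922 kb, and of 9.42 in Htr2b, which spans 12.9 kb, so that levels of different genes are compared here only on this per-length scale. Of the 912 values of the 48 genes, 84.6% were 0, compared to 91.1% in the whole table. The 140 values above 0 had a median log2 PpGC of 7.09 and a median of 11 split reads, and 39 of them (27.9%) rested on 2 or 3 split reads. Values do not show whether a circle held exons or introns. Exons made up a median of 3.86% of the length of the 48 genes.

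**Figure D1:**
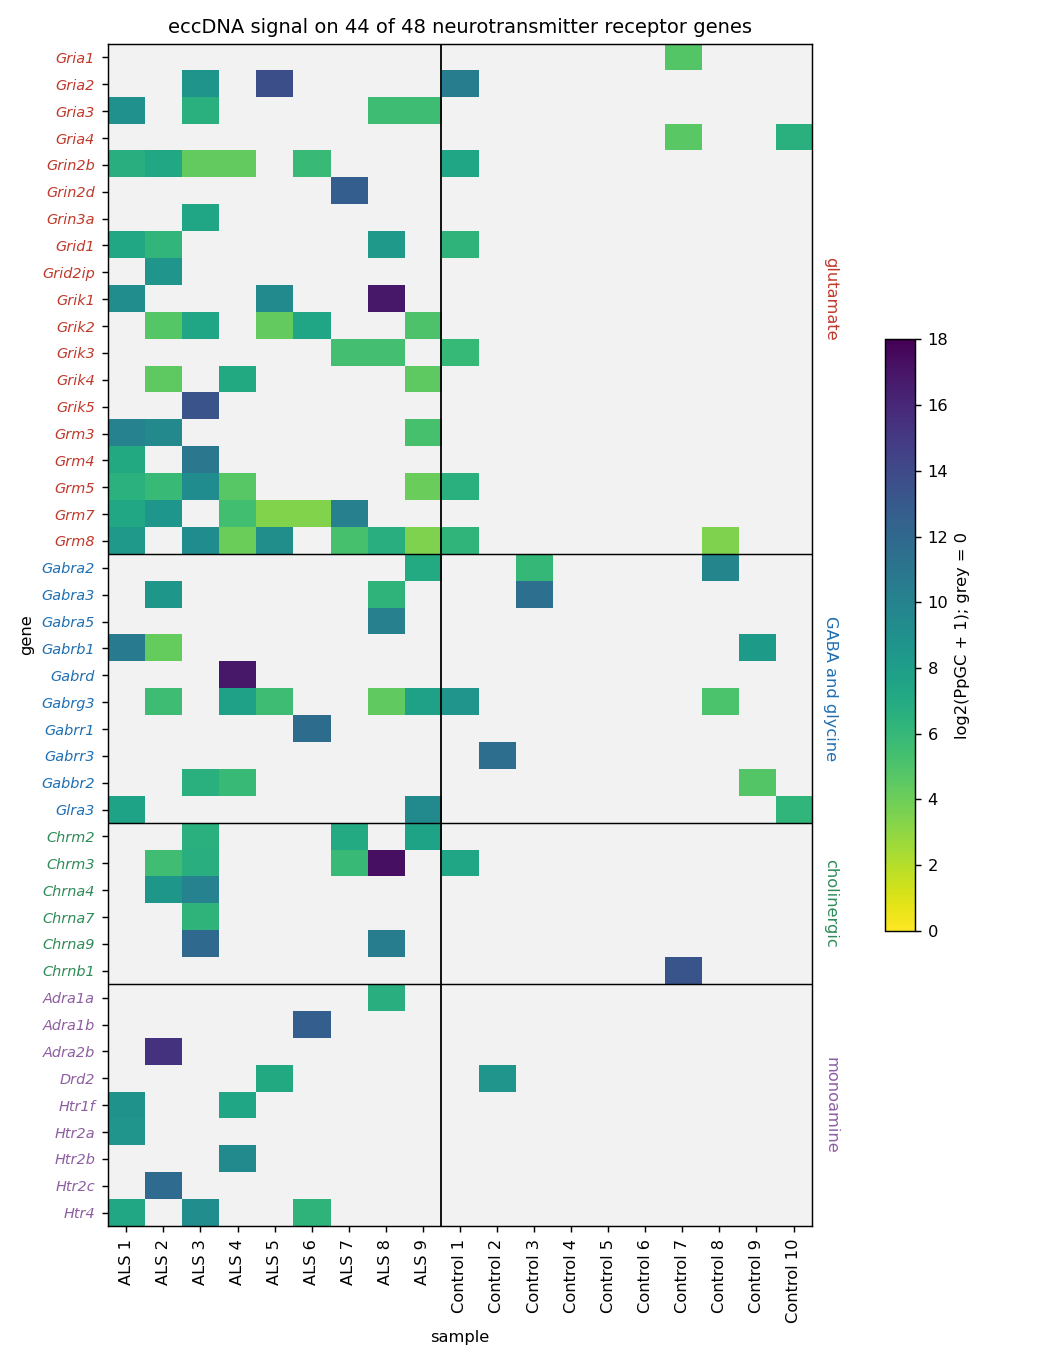
Log2(PpGC + 1) of 44 of the 48 genes (rows, coloured and separated by class) in the 9 ALS and 10 control samples (columns, separated by the vertical line), with 0 in grey. Filled cells are spread over all ALS columns, control 1 holds 8 of the 22 filled control cells, and control 4, control 5 and control 6 hold none among the genes drawn.

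The libraries differed in eccDNA load. Genes with an eccDNA numbered 694 to 2204 per ALS sample (median 1114) and 57 to 723 per control sample (median 157.5), and split reads on genes 74016 to 391394 and 3583 to 123387. The number of sequenced reads per library is not in the table. On chromosomes 1, 10 to 19 and X, the share of a library's genes that lay on the chromosome varied more between ALS libraries (median chi-square per degree of freedom 7.27) than on chromosomes 2 to 9 (0.846). Chromosomes 2 to 9 carry 29 of the 48 genes and the others carry 19. The median group difference of log2 PpGC, ALS minus control, was 1.49 over the former and 1.41 over the latter.

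The number of receptor genes with an eccDNA was 12.4 ± 4.25 (SD, n = 9) per ALS sample and 2.80 ± 2.62 (SD, n = 10) per control sample. The ALS samples held between 7 and 18 (median 12) and the controls between 0 and 9 (median 2.5). The groups overlapped through control 1 alone, which with 9 receptor genes lay above ALS 6 and ALS 7, each with 7, and level with ALS 5. This sample also had the most genes with an eccDNA among the controls (723). As a share of all genes with an eccDNA in the sample, receptor genes made up 0.982% ± 0.259 (SD) in ALS and 1.11% ± 0.834 (SD) in controls, and the range in ALS (0.633% to 1.41%) lay within that of the controls (0 to 2.75%). Counted by genes, receptor genes thus took overlapping shares of a larger number. Of the split reads on genes, receptor genes held 1.53% ± 2.82 (SD, median 0.458%) in ALS and 0.515% ± 1.18 (SD, median 0.103%) in controls. The difference of these shares was not tested. By class, the mean number of genes with an eccDNA per sample was 7.00 in ALS and 1.40 in controls for glutamate. It was 2.78 and 1.10 for GABA and glycine, 1.33 and 0.20 for cholinergic and 1.33 and 0.10 for monoamine genes. No p-value was attached to these counts, since they are sums over the genes chosen.

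**Figure D2:**
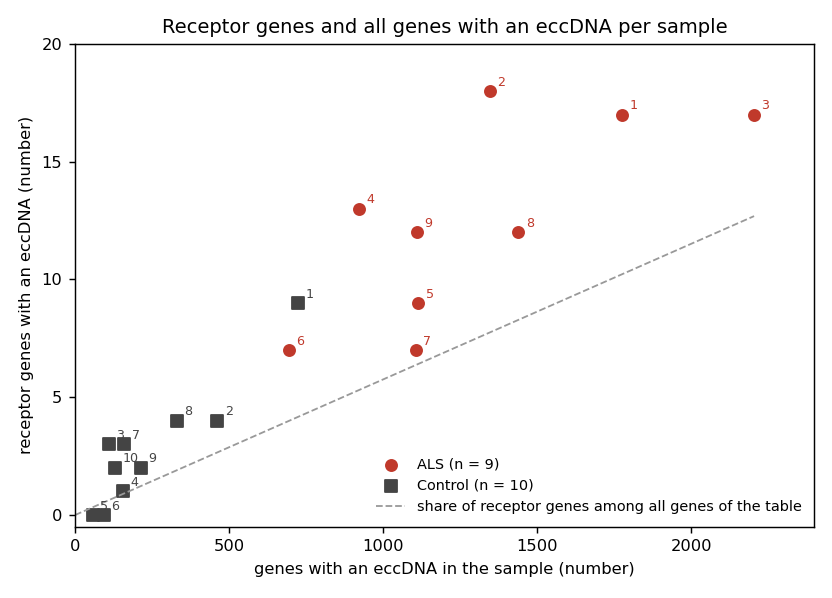
Receptor genes with an eccDNA against all genes with an eccDNA, both as numbers per sample (points with replicate numbers, ALS circles, control squares), with a dashed line at the share that the 48 genes have in the 8336 genes of the table. All samples but control 5 and control 6 lie above the line, and control 1 lies next to ALS 6.

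Each gene of the table was compared between ALS and control samples, and a gene was called up in ALS when the mean log2 PpGC was higher by more than 1 with a p under 0.01 by the methods' t-test (the test that the study's methods name, taken two-sided). Of the 48 genes, Grm7, Grm8 and Grik2 were called up (6.25%), compared to 1.33% of all genes tested. All 3 are glutamate receptor genes of over 500 kb. In the opposite direction 0 of the 48 were called, compared to 0% of all genes tested, and 0 had an unadjusted p under 0.05 by the methods' t-test or, by limma, a p under 0.01. After Benjamini-Hochberg adjustment over all 8336 genes, 0 of the 48 were up, compared to 0.072% of all genes, and limma also gave 0. At an unadjusted p under 0.05 by the methods' t-test, 7 of the 48 were higher in ALS (compared to 4.2% of all genes), and at an unadjusted two-sided exact permutation p under 0.05, 5 were (10.4%, compared to 3.72% of all genes), all of them glutamate receptor genes. The adjusted exact permutation p of the 48 was at least 0.487. Without a test, the mean was higher in ALS for 41 of the 48 (85.4%), compared to 86.5% of all genes, and the median difference was 1.46 over the 48 and 1.19 over all genes.

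The call of 3 genes was not stable. When each of the 19 samples was left out in turn, all 3 were called in only 3 cases, without ALS 4, control 1 or control 8. Grm7 was called each time, Grik2 was not called in 5 cases (without ALS 2, ALS 3, ALS 5, ALS 6 or ALS 9) and Grm8 was not called in 13, among them 8 in which a control was left out. The count was 2 in 14 cases and 1 (Grm7) without ALS 3 or without ALS 5. It went to 1 (Grm8) with the replicate number as a block, to 1 (Grm7) with equal totals or by presence or absence, and to 0 when the sample load, the number of eccDNA-bearing genes, entered as a covariate, whereas it was 4 without control 1 (Grin2b added) or without control 8. The count over the whole table also fell, from 111 genes to 54 with the block, 60 with equal totals, 57 by presence or absence and 26 with the sample load. The block fit left out control 10, whose number no ALS sample has, so that its counts rest on fewer samples. With the covariate, 22 of the 48 genes were higher in ALS, compared to 4402 of all 8336, and the median difference of the 48 turned to -0.32. The sign turned from higher to lower in 19 of the 48 (39.6%) and in 34.2% of all genes. This covariate follows the groups closely, since 8 of the 9 ALS samples exceeded every control in it.

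Grm7 and Grm8 encode group III metabotropic glutamate receptors, which sit on presynaptic terminals and damp transmitter release. In Grm7 (chromosome 6, 110645581 to 111567230, mm10, 922 kb), the log2 PpGC was 7.28 in ALS 1, 8.54 in ALS 2, 5.47 in ALS 4, 3.41 in ALS 5 and in ALS 6, and 10.16 in ALS 7. ALS 3, ALS 8, ALS 9 and all controls were at 0, so that the groups met only at 0. The mean was 4.25 ± 3.87 (SD, n = 9) in ALS, a difference of 4.25 with an SE of 1.22 (exact permutation p = 0.00310, two-sided). The values of ALS 5 and ALS 6 rested on 2 split reads each and that of ALS 7 on 238. With the sample load as a covariate the difference of Grm7 was 5.75 (p = 0.0242 by two-sided permutation of residuals). With values of at most 3 split reads set to 0 it was 3.49 (exact permutation p = 0.0325, two-sided). The call of Grm7 was lost with the replicate block, the sample load, a pseudocount of 100 and values of at most 3 split reads set to 0.

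In Grm8 (chromosome 6, 27275119 to 28135178, 860 kb), values ranged from 0 to 9.21 in ALS with a median of 5.21, and from 0 to 6.19 in controls with a median of 0. An eccDNA was present in 7 ALS samples, all but ALS 2 and ALS 6, and in control 1 (6.19) and control 8 (3.50), so that the groups overlapped. The difference was 4.15 with an SE of 1.33 (exact permutation p = 0.00791, two-sided), and leaving out each sample in turn it lay between 3.63 and 4.79 with an exact permutation p of 0.00370 to 0.0193. Its call was lost in 13 of these 19 cases. It was also lost with equal totals, by presence or absence, with the sample load, with a pseudocount of 100 and with values of at most 3 split reads set to 0. In the last setting the difference was 3.66 (exact permutation p = 0.0263, two-sided). With the sample load as a covariate it turned to -1.75 (p = 0.378 by two-sided permutation of residuals).

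Grm5, a group I metabotropic receptor that couples to phospholipase C, had values of 0 to 9.22 in ALS (median 4.10) with 5 samples above 0, and 1 control, control 1, at 6.61. Its difference was 2.71 (exact permutation p = 0.0774, two-sided), and it was -3.57 with the sample load as a covariate. Of the other metabotropic genes, Grm3 was seen in ALS 1, ALS 2 and ALS 9 (10.04, 9.50 and 5.25) and Grm4 in ALS 1 and ALS 3 (7.08 and 10.88), with no control above 0 in either. The 6 metabotropic genes had a median difference of 2.73, the highest of the families with more than 2 genes.

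Grik2 encodes a pore-forming kainate receptor subunit. On chromosome 10 (49094833 to 49788766, 694 kb), its log2 PpGC was 4.73 in ALS 2, 7.39 in ALS 3, 4.33 in ALS 5, 7.33 in ALS 6 and 5.04 in ALS 9, and 0 in the other 4 ALS samples and in all controls. The difference was 3.20 with an SE of 1.01 (exact permutation p = 0.0108, two-sided). The eccDNA signal was small, with 3 to 26 split reads per sample. With values of at most 3 split reads set to 0 the difference was 2.72 (exact permutation p = 0.0325, two-sided). With the sample load as a covariate the difference was 2.87 (p = 0.164 by two-sided permutation of residuals). On chromosome 10, the share of the library's genes varied from 2.43% to 8.98% between ALS samples and control 10 had none.

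Grik1, another kainate subunit, was seen in 3 ALS samples and in no control, with 9.17 in ALS 1, 9.38 in ALS 5 and 16.87 in ALS 8. The last value came from 10679 split reads. It was the only one of the 48 genes at a log2 PpGC of 9 or more in at least 3 ALS samples, the criterion that the study's methods set for common PpGCs in ALS and that 0.852% of all genes met. With the criterion for controls, a value of 8 or more in at least 3 of them, 0 of the 48 genes were common, compared to 0.048% of all genes. Grik4 was seen in ALS 2, ALS 4 and ALS 9 (4.45, 7.09 and 4.45), Grik3 in 2 ALS samples (5.35 in each) and control 1 (5.92), and Grik5, the shortest of the 5 kainate genes with 62.5 kb, in ALS 3 alone (13.42). All 5 had a higher mean in ALS, with a median difference of 1.78.

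The AMPA receptor genes did not share a direction. Gria3, on the X chromosome, had log2 PpGC values of 8.91 in ALS 1, 6.60 in ALS 3, and 5.61 in ALS 8 and in ALS 9, from 30, 6, 3 and 3 split reads, with all controls at 0. Its difference was 2.97 with an SE of 1.15 (exact permutation p = 0.0325, two-sided), which became -2.07 with the sample load as a covariate (p = 0.229 by two-sided permutation of residuals). Without any 1 of these 4 samples, or any 1 control, its p was at least 0.0686. With values of at most 3 split reads set to 0, the difference of Gria3 was 1.72 (exact permutation p = 0.211, two-sided).

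Gria4 was the reverse of Gria3 in presence, with 4.61 in control 7 and 6.57 in control 10 and all ALS samples at 0, a difference of -1.12 (exact permutation p = 0.474, two-sided). Gria1, in control 7 alone (4.85, from 2 split reads), differed by -0.48. Gria2, which encodes the subunit that keeps AMPA channels impermeable to calcium, was at 8.65 in ALS 3, 13.67 in ALS 5 and 10.44 in control 1. Its highest value, from 357 split reads, belonged to ALS 5.

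The delta receptors bind cerebellins at synapses. Grid1 (763 kb) was seen in ALS 1, ALS 2 and ALS 8 (7.19, 6.14 and 8.35) and in control 1 (6.26), with a difference of 1.78 (exact permutation p = 0.195, two-sided) that was -2.22 with the sample load as a covariate. Grid2ip was seen in ALS 2 alone, with 3 split reads, the number that the overlapping antisense gene Gm20635 also had. An eccDNA that lies over 2 genes enters the value of each.

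Grin2b encodes an NMDA receptor subunit that binds glutamate. It ranged from 0 to 7.19 in ALS (median 4.34), with 5 samples above 0, and control 1 exceeded all of them with 7.45. The difference was 2.42 (exact permutation p = 0.0851, two-sided) and -0.54 with the sample load as a covariate. Without control 1 it was 3.17 (p = 0.0294, same test), and with values of at most 3 split reads set to 0 it was 1.46 (p = 0.373, same test). Grin2d was seen in ALS 7 alone (12.60) and Grin3a in ALS 3 alone (7.41).

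**Figure D3:**
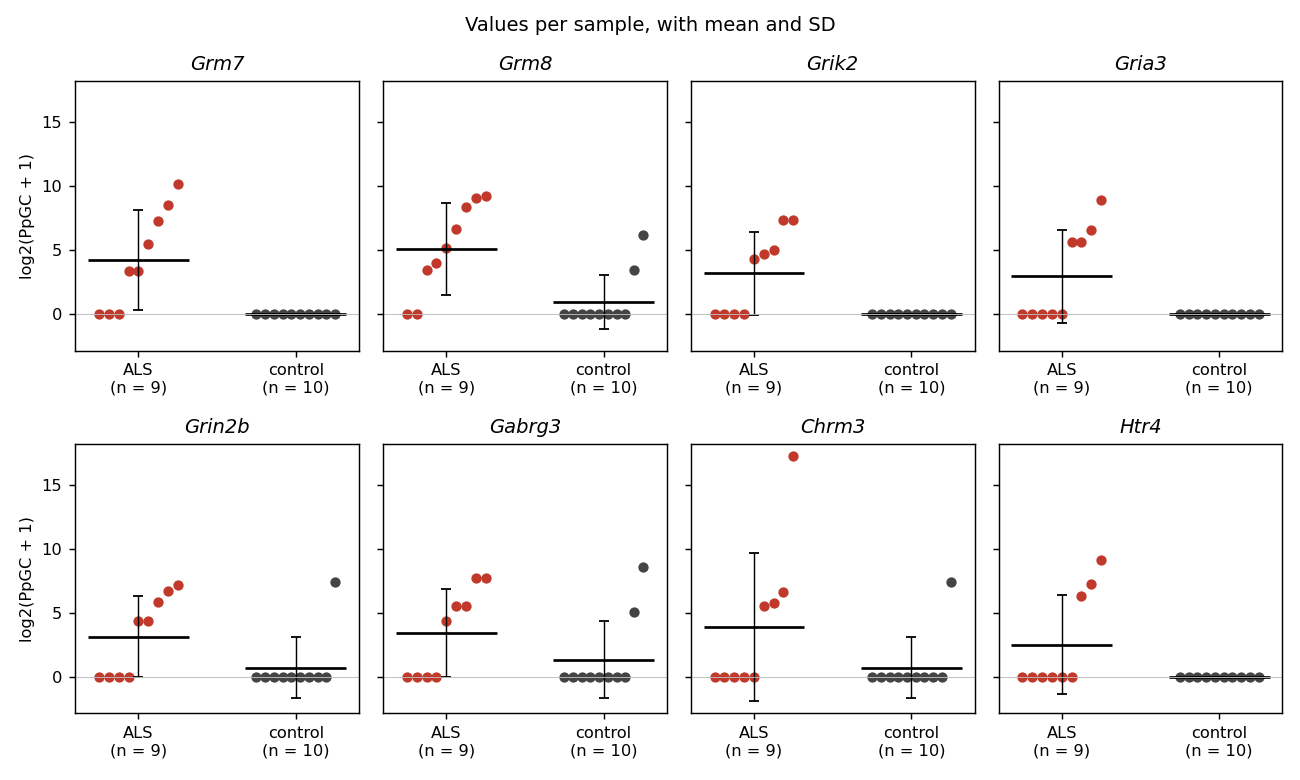
Log2(PpGC + 1) per sample (points, sorted within each group) with the mean (line) and SD (bar) for 8 of the genes, in ALS (n = 9) and controls (n = 10). Controls lie at 0 in Grm7, Grik2, Gria3 and Htr4, while in Grm8, Grin2b, Gabrg3 and Chrm3 some controls lie among or above the ALS values.

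Of the GABA and glycine receptor genes, 0 of 12 were called up, compared to 1.33% of all genes. Gabrg3, which encodes a GABA-A receptor subunit, was seen in 5 ALS samples (highest 7.73) and in control 1 (8.59) and control 8 (5.09). It differed by 2.07 (exact permutation p = 0.194, two-sided). Without control 1, which exceeded all ALS samples, its difference was 2.88 (p = 0.0498, same test), whereas it was 0.92 (p = 0.506, same test) with equal totals and 1.59 (p = 0.336, same test) with values of at most 3 split reads set to 0.

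In 2 GABA-A genes the mean was lower in ALS. Gabra2 was at 9.81 in control 8 and 6.03 in control 3 against 7.01 in ALS 9, a difference of -0.80 (exact permutation p = 0.737, two-sided) that was 0.11 without control 8. Gabrr3 was seen in control 2 alone (11.49), with a difference of -1.15. Gabra3 had its highest value in control 3 (11.43, 139 split reads, the most of any control value among the 48 genes), above ALS 2 (8.48) and ALS 8 (6.32). Gabrb1 was seen in ALS 1, ALS 2 and control 9 (10.49, 4.25 and 8.18). The genes of 1 sample only were Gabrd in ALS 4 (16.85, from 350 split reads on 13.1 kb), Gabrr1 in ALS 6 (11.62), Gabra5 in ALS 8 (10.14) and Gabrr3. Gabbr2, the GABA-B subunit that couples to the G protein, was at 6.57 in ALS 3, 5.78 in ALS 4 and 4.80 in control 9, and Glra3, a glycine receptor subunit, at 7.56 in ALS 1, 9.41 in ALS 9 and 6.15 in control 10. Over the class, 7 of 12 genes (58.3%) were seen in both groups, compared to 14.0% of all genes, and the median difference was 1.20.

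Among the cholinergic genes, 0 of 6 were called up, compared to 1.33% of all genes. Chrm3, a muscarinic receptor coupled to phospholipase C, was at 5.54 in ALS 2, 6.67 in ALS 3, 5.80 in ALS 7 and 17.23 in ALS 8, and at 7.45 in control 1. The value of ALS 8 came from 16842 split reads, the highest of any receptor gene, and control 1 exceeded the other 3 ALS samples with an eccDNA. The difference was 3.17 with an SE of 1.99 (exact permutation p = 0.119, two-sided), 1.51 without ALS 8, and -2.49 with the sample load as a covariate. In ALS 2 and ALS 7 its 5 and 6 split reads were equal to those of Gm47405, a sense intronic gene of Chrm3. Chromosome 13, on which it lies, held 0.442% to 6.21% of a library's genes among ALS samples.

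Chrm2, a muscarinic receptor that inhibits adenylate cyclase, was seen in ALS 3 (6.58), ALS 7 (6.99) and ALS 9 (7.57) and in no control, with 3 to 6 split reads. Its difference was 2.35 (exact permutation p = 0.0867, two-sided). Of the nicotinic genes, which encode subunits of acetylcholine-gated channels, Chrna9 was at 11.84 in ALS 3 and 10.41 in ALS 8 with a difference of 2.47 (p = 0.211, same test) that was -3.72 with the sample load as a covariate, Chrna4 at 8.47 in ALS 2 and 10.05 in ALS 3, and Chrna7 at 6.30 in ALS 3. Chrnb1, a subunit of the muscle receptor, was in control 7 alone (13.35, from 28 split reads on 11.9 kb). Its difference of -1.33 was the most negative of the 48. ALS 3 held 5 of the 6 cholinergic genes, while ALS 1, ALS 4, ALS 5 and ALS 6 held none.

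The 9 monoamine receptor genes were found in a mean of 1.33 ALS samples and 0.111 control samples per gene, compared to 3.00 and 0.667 for glutamate receptor genes and to 1.40 and 0.292 for all genes, and 6 of the 9 (66.7%) were seen in 1 sample only, compared to 66.2% of all genes. Htr4, a serotonin receptor that stimulates adenylate cyclase, was at 7.28 in ALS 1, 9.15 in ALS 3 and 6.29 in ALS 6, with 3 to 22 split reads and all controls at 0. The difference was 2.52 (exact permutation p = 0.0867, two-sided) and -1.51 with the sample load as a covariate. Htr1f, an inhibitory serotonin receptor, was at 8.79 in ALS 1 and 7.43 in ALS 4 with a difference of 1.80 (exact permutation p = 0.211, two-sided).

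The serotonin receptor genes Htr2a (8.60, ALS 1), Htr2b (9.42, ALS 4) and Htr2c (11.69, ALS 2) were each found in 1 ALS sample, as were the adrenergic receptor genes Adra1a (6.63, ALS 8), Adra1b (12.65, ALS 6) and Adra2b (15.36, ALS 2). The 2 split reads of Htr2b were equal in number to those of Psmd1, which overlaps it. Adra2b, a gene of 4.01 kb with 38 split reads, had the shortest length of all 48. Drd2, the only dopamine receptor gene among them, was at 7.05 in ALS 5 and 8.63 in control 2, a difference of -0.08.

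Receptor genes were long. Their median length was 182.6 kb, compared to 49.3 kb over the 8088 genes placed on mm10. The median was 378.3 kb for glutamate, 163.9 kb for GABA and glycine, 126.6 kb for monoamine and 78.1 kb for cholinergic genes. Of the 7 genes over 500 kb, 3 (Grm7, Grm8 and Grik2) were called up (42.9%), compared to 56 of 232 genes of this length in the whole table (24.1%). Between 200 and 500 kb, 0 of 15 receptor genes were called up, compared to 43 of 798 (5.39%). Genes over 500 kb held an eccDNA in a mean of 5.57 ALS and 1.29 control samples among receptor genes, and in 5.07 and 1.49 over all genes, and those of 50 to 200 kb in 1.53 and 0.353, and in 1.41 and 0.275. All of these are descriptions without a test.

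**Figure D4:**
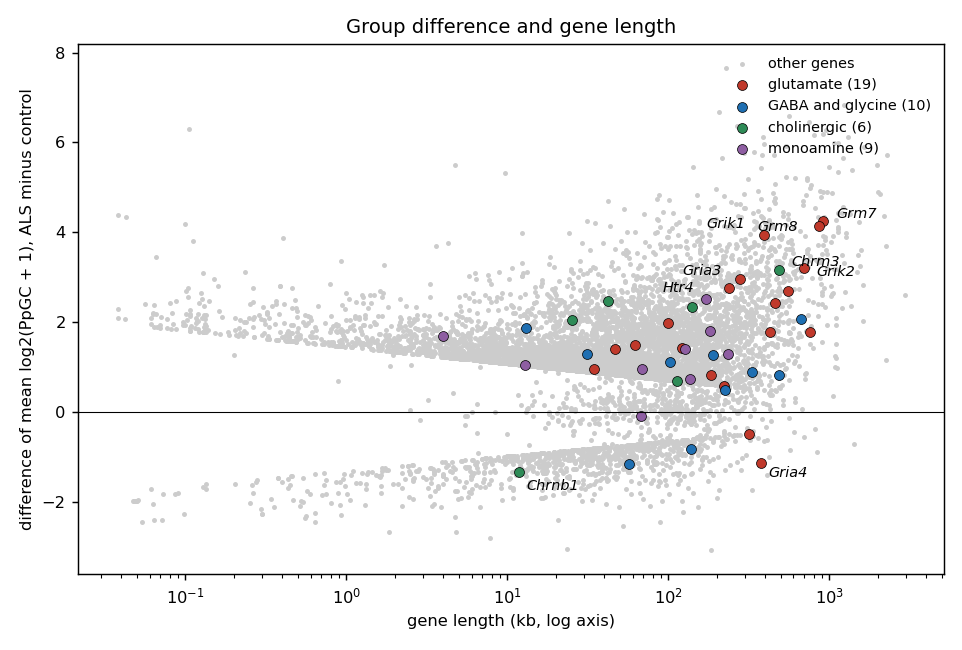
Difference of the mean log2(PpGC + 1), ALS minus control, against gene length (log axis) for 44 of the 48 receptor genes, coloured by class, and for the other genes placed on mm10 (grey). The receptor genes lie within the grey cloud at their length, with Grm7 (4.25) and Grm8 (4.15) highest and Chrnb1 (-1.33) lowest.

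Receptor genes without a row in the table were short. GENCODE M21 lists 104 names that match the symbol rule, of which 56 had no row and 2 of these are antisense RNA genes. The 54 protein-coding genes without a row had a median length of 17.7 kb, and 44 of them were up to 50 kb long, compared to 9 of the 48 with a row. The longest without a row was Grin2a, an NMDA receptor subunit, with 427.7 kb. Others were Glra1 and Glrb, which encode the subunits of the adult glycine receptor.

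Genes whose products work with the receptors were taken from textbook lists. Those given with a p-value were mostly the 3 with the smallest exact p of their list. After Benjamini-Hochberg adjustment over all genes, 0 genes of any list were up by the methods' t-test, compared to 0.072% of all genes. The adjusted exact permutation p was 0.284 for Dlg2 and for Dlgap2 and 0.487 for Adcy2. Of 33 genes for auxiliary and scaffold proteins of glutamate receptors, 17 had a row, 2 were called up (compared to 1.33% of all genes), 0 were lower, and the median difference was 1.61. The called genes, Dlg2 and Dlgap2 (752 kb), were both over 500 kb, a length at which 24.1% of all genes were called up. Dlg2, a postsynaptic scaffold of NMDA receptors that spans 1973 kb, was at 4.07 to 13.49 in all ALS samples (median 7.20) and at 2.95 to 6.28 in 4 controls, a difference of 5.49 (exact permutation p = 5.41e-04, two-sided). Dlgap2, which binds such scaffolds, was at 0 to 15.22 in ALS (median 5.19), with 7 samples above 0 and no control, a difference of 6.45 (p = 7.14e-04, same test). Its relative Dlgap1 differed by 4.34 (p = 0.0225, same test) and was not called. With the sample load as a covariate, Dlg2 differed by 1.63, Dlgap2 by 3.88 and Dlgap1 by -0.53, and the p of each was at least 0.208 (two-sided permutation of residuals).

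Of 38 genes for G protein signalling, 23 had a row and 1 was called up (again beside 1.33% of all genes), with a median difference of 1.44. This was Adcy2, an adenylate cyclase on chromosome 13, at 6.15 to 13.03 in 6 ALS samples and 0 in the other 3 and in all controls, a difference of 5.43 (exact permutation p = 0.00310, two-sided). Plcb1, a phospholipase C, differed by 4.61 (p = 0.0108, same test) and Itpr2, a calcium release channel, by 4.04 (p = 0.0126, same test), and neither was called. With the sample load as a covariate, the difference was 6.63 for Adcy2 (p = 0.0288), 5.68 for Plcb1 (p = 0.109) and 8.31 for Itpr2 (p = 0.00610, all by two-sided permutation of residuals). With values of at most 3 split reads set to 0, Itpr2 differed by 2.46 (exact permutation p = 0.141, two-sided).

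For GABA and glycine receptors, 10 of 17 partner genes had a row and 0 were called up (beside 1.33% of all genes). Their median difference was 2.65. Gphn, which encodes the gephyrin scaffold, Kctd16, an auxiliary protein of GABA-B receptors, and Lhfpl3 had differences of 3.58, 3.40 and 3.51, each resting on 4 ALS samples against controls at 0 (each at an exact permutation p of 0.0325, two-sided). Without any 1 of the 4 samples, or any 1 control, each p was at least 0.0686 and at most 0.0824. With the replicate number as a block, the permutation p was 0.0517 for Gphn, 0.0506 for Kctd16 and 0.0390 for Lhfpl3. With the sample load as a covariate, the difference was -0.93 for Gphn, -0.21 for Kctd16 and 2.32 for Lhfpl3. For acetylcholine, 7 of 17 partner genes had a row and 0 were called up (beside 1.33% of all genes). The values were 11.63 for Bche in ALS 1 and 10.65 for Musk in ALS 3, each the only sample, and 6.80 and 8.87 for Lypd6b in ALS 4 and ALS 8, with a median difference of 1.07 over the list. Of 31 genes for transmitter synthesis and transport, 7 had a row and 0 were called up (beside 1.33% of all genes). Their median difference was 0.86. Abat, Slc6a2 and Slc6a5, which break down or take up transmitters, were each seen in 1 ALS sample (9.36, 8.33 and 7.96). In the same list 2 of the 7 genes, chosen after their values were seen, were found in controls only, compared to 10.9% of all genes. Slc1a2, the main glutamate transporter of astrocytes, was in 2 controls with a difference of -1.69, and Th, the rate-limiting enzyme of dopamine and noradrenaline synthesis, was in 1 control with a difference of -1.22 (exact permutation p of 0.474 and 1, two-sided). In the other partner lists, Iqsec3 (-0.65) and Gna14 (-0.77) were each seen in 1 control only.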

How the data were processed

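Per the labels, DNA came from individual cervical cord samples, so that the 9 ALS and 10 control libraries were counted as separate animals. The authors mapped paired reads to mm10 with Circle_Finder, merged eccDNAs closer than 10 bp, removed those with under 2 split reads, left out mitochondrial DNA, intersected with GENCODE genes by bedtools and deposited log2(PpGC + 1), without a scaling between libraries. Which GENCODE release they took is not given in the sources used here. The table had 0 columns of other samples.

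From there, values were used as deposited. Names were matched to GENCODE M21, which placed 8088 of 8336 genes and all 48 receptor genes, and dividing out the length factor left whole split reads (tolerance 0.02) for 98.9% of values above 0 and for all 140 of the receptor genes. Copies made by rolling circle amplification are not independent molecules and the sequencing depth is not in the table, so that no counting interval was given. Group differences were read from Student's test over the whole table with Benjamini-Hochberg adjustment, single genes from the two-sided exact permutation test over 92378 regroupings, and covariate and block fits of single genes from permuted residuals (100000 resamples, seed 20). The smallest exact p of the table was 3.25e-05.

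The receptor genes, the partner lists and the rule for named genes were chosen with earlier results of these data known. Statistics were given for Grm7, Grm8, Grik2, Chrm3, Htr4, Gria3 and Grid1, for genes in at least 4 samples or in at least 2 controls, for the 3 smallest exact p of each class and partner list and for the 5 most negative differences, and others were named with their values. The remaining 4 of the 48 genes enter all counts and medians and are not reported here singly. Same-numbered samples had deviations with correlations of -0.02 to 0.02. With 91.1% of the values of the table at 0, this cannot show whether a replicate number marks a pair. Alternatives were limma, exact p, adjustment, a replicate block, a stricter or one-sided p, the sample load as a covariate, equal totals, no length scaling, presence or absence, a pseudocount of 100, leaving out each sample and a minimum of 3 samples. Setting values of at most 3 split reads to 0 and restricting to chromosomes 2 to 9 were chosen after seeing the data. Python 3.11.15, NumPy 2.4.6, pandas 2.3.3, SciPy 1.17.1, matplotlib 3.10.9, R 4.3.3 and limma 3.58.1 were used. Student's test, the exact permutation test and the fits with a covariate or block were tested on simulated data.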

Additional observations from a re-analysis of the deposited data

Results flagged for a closer look

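Among the values of the named genes and the sums per sample, 52 sets with any spread were looked at, and in 21 the extreme sample stood apart from the others by a gap over the range above 0.493 (ALS) or 0.466 (controls). The cut-offs are meant to flag about 1 in 20 sets of normally distributed values. That rate does not hold here, since many values were 0. A gene seen in 1 sample of a group always has a ratio of 1, and 15 of the 21 were of this kind.

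A ratio of 1 was found for 1 ALS sample each in Adra2b (ALS 2, 15.36), Gabra2 (ALS 9, 7.01), Abat (ALS 3, 9.36), Bche (ALS 1, 11.63), Musk (ALS 3, 10.65), Slc6a2 (ALS 7, 8.33) and Slc6a5 (ALS 3, 7.96). The same ratio of 1 held for 1 control each in Chrm3 (control 1, 7.45), Grid1 (control 1, 6.26), Grin2b (control 1, 7.45), Grm5 (control 1, 6.61), Chrnb1 (control 7, 13.35), Gria1 (control 7, 4.85), Itpr2 (control 7, 5.84) and Gabrr3 (control 2, 11.49).

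Where other samples were above 0, ALS 8 stood apart in Chrm3 with 17.23 (ratio 0.613) and control 2 in Dlgap1 with 8.03 (0.495). ALS 8 also held 27676 split reads on receptor genes (0.823), which were 8.70% of its split reads on genes (0.678), nearly all of them on Chrm3 and Grik1. Among the controls, control 1 held 9 receptor genes (0.556), and control 3 had 3.84% of its split reads on receptor genes (0.887).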

How the results depend on the processing

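The count of 3 receptor genes called up was 1 with the replicate block (Grm8), with equal totals (Grm7) and by presence or absence (Grm7), and 0 with adjustment, p under 0.001, the sample load as a covariate, a pseudocount of 100, or values of at most 3 split reads set to 0. Over all genes, the 111 called became 6 with adjustment, 29 at p under 0.001 and 9 with the pseudocount of 100. They became 60 with values of at most 3 split reads set to 0. On chromosomes 2 to 9 alone the count of receptor genes was 2 (Grm7 and Grm8), with 64 of all 4158 genes. It lay between 1 and 4 when each sample was left out. The count of lower genes was 1 (Grm4) with the sample load, where 84 of all 8336 genes (1.01%) were called lower, and 0 under every other alternative run, and the adjusted count was 0 in all of its alternatives. The 41 genes with a higher mean became 22 with the sample load and 23 with a minimum of 3 samples, which leaves 24 of the 48 genes, and 38 to 42 with 1 sample left out. The median difference of 1.46 became -0.32 with the sample load and was 1.45 to 1.71 with 1 sample left out. The difference of 9.64 receptor genes per sample became 3.78 for log2 PpGC of at least 8, by construction, and was 8.95 to 10.3 with 1 sample left out. The sample load turned the sign in 19 of the 48 genes. Among those given with a test were Chrm3 (-2.49), Chrna9 (-3.72), Gria3 (-2.07), Grid1 (-2.22), Grin2b (-0.54), Grm5 (-3.57), Grm8 (-1.75) and Htr4 (-1.51). Of the partner genes it turned Abat (-3.28), Bche (-1.52), Dlgap1 (-0.53), Gphn (-0.93), Kctd16 (-0.21), Musk (-3.73) and Slc6a5 (-2.79). Gabra2 lay between -1.58 and 0.11 with 1 sample left out, at 0.11 without control 8. For the replicate block, which left out control 10, it is not known whether same-numbered samples shared more than a number. Of the 9 ALS samples, 2 correlated best with the control of their own number. Of the 19 receptor genes with a permutation p under the block, none changed its side of 0.05. The cause of these changes was not tested. Small values limit what is seen, since 39 of 140 values rest on 2 or 3 split reads.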
